A study of Mus musculus with 4 samples.

Results

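Gene expression in mouse bone marrow kept for 3 days in medium with vitamin D3 was compared with that of marrow on the day it was taken. The comparison is the day 4 array against the day 1 array, 2 of the 4 arrays of a time course of osteoclast formation, with 1 array per time. All 45037 probe sets that are not controls were used, and signals below the median of all 4 arrays, a floor of 32.4 signal units, were raised to it. Of 18193 genes with a name of their own on the array, 11981 were above the floor on at least 1 of these 2 arrays: 10612 on both, 785 on day 4 alone and 584 on day 1 alone.

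Both samples came from the bone marrow of female C57Bl/6J mice aged 12 weeks, with no genetic change given. The day 1 sample is marrow at extraction, with 0 days of differentiation per its label. The day 4 sample had been grown for 3 days in a-MEM with 10% FBS and 10 nM vitamin D3, and neither M-CSF nor RANKL had been added. No culture without vitamin D3 was compared here, so vitamin D3 and time in culture cannot be told apart. The labels do not give the number of mice, whether marrow was pooled, whether the 2 samples share animals, or whether cells that had not attached were removed. The days 5 and 7 samples, with 20 ng/ml M-CSF and 40 ng/ml RANKL added to the same medium, are used below only to show where a signal stood afterwards.

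Marrow is a mixture of red cell precursors, granulocytes, lymphocytes, monocytes and their progenitors with a small number of stromal cells, the fibroblast-like cells that hold the tissue together and give rise to bone-forming cells. Vitamin D acts through a nuclear receptor, Vdr, and in marrow culture it is known for making stromal cells produce RANKL, which drives macrophage precursors to become osteoclasts. Each array averages over all cells present, so fewer cells of a type and less RNA per cell cannot be told apart in any value below.

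With 1 array per day there is no replicate and no test, and no error between cultures can be given. Here higher and lower mean a signal that differs by 2-fold or more, a threshold of size alone. A gene above the floor on 1 array only has a bound, written as at least N-fold. Over all measured genes, 1202 (10.0%) were higher on day 4 and 1036 (8.65%) were lower, and 312 and 146 of these were below the floor on the other day. The median log2 difference of all measured genes was 0.06, and 54% of them lay above 0. As technical spread, the log2 differences of 18 spiked controls had an SD of 0.17, and those of probe sets that share a gene a pooled SD of 0.41. Where the mean log2 difference over all probe sets of a named gene, those below the floor included, was under 1 in size, it is given in brackets after the fold as its mean. Where another way of processing moved the median of a list by over 1.5 times, the range over the 10 alternatives follows the median. The mean signal without the extremes was 281 on day 1 and 283 on day 4.

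The plot of gene lists sets the groups described below side by side. Each list is read against the shares over all genes, 10.0% higher and 8.65% lower.

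**Figure D1:**
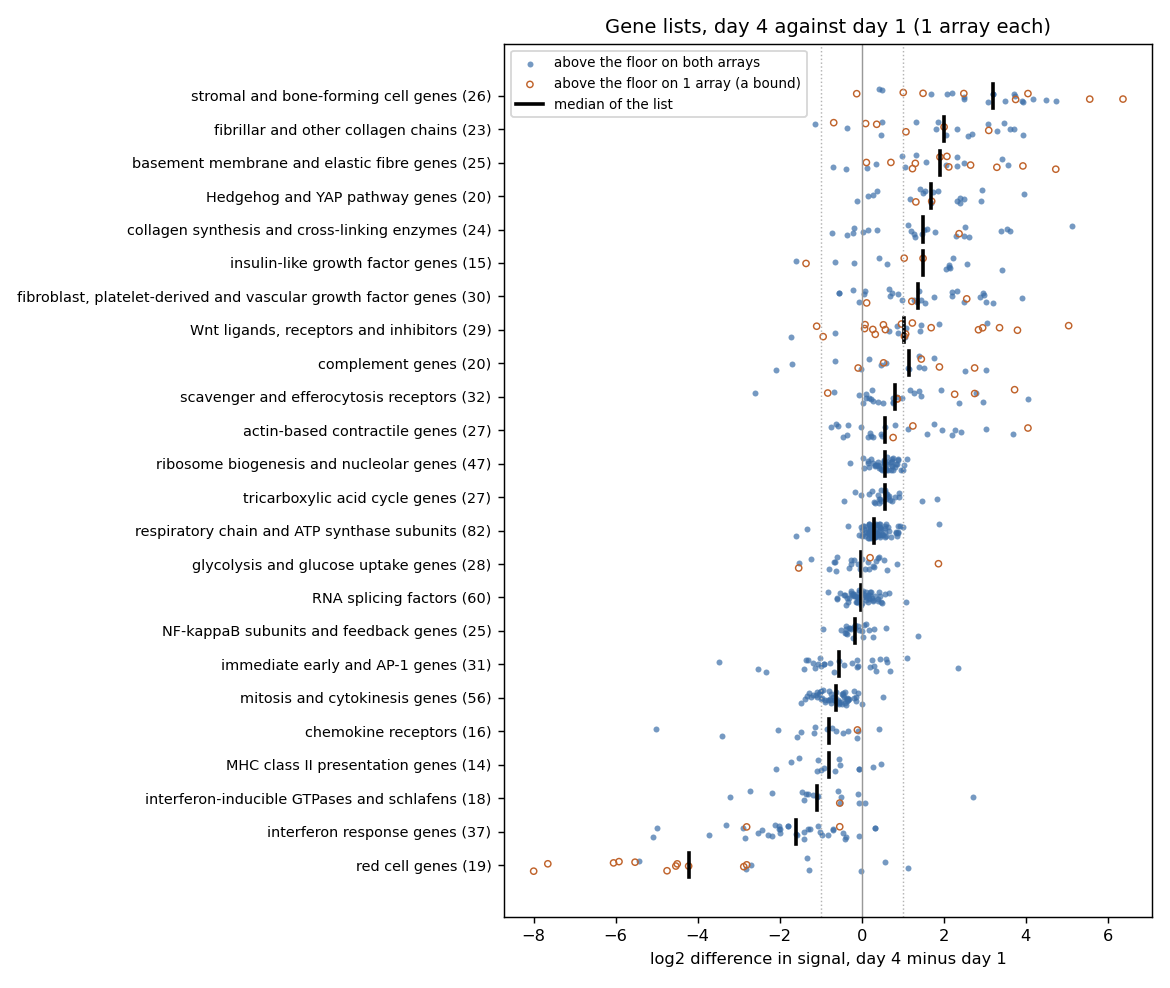
Log2 difference in signal between day 4 and day 1 (horizontal axis) for the measured members of 24 gene lists, with the number of members in brackets. Each filled point is a gene above the floor on both arrays, each open point is a gene above it on 1 array (a bound), and each bar is the list's median. Dotted lines mark 2-fold. The list medians run from 3.19 for stromal genes to -4.22 for red cell genes.

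Both samples carry the cell type label primary osteoclast. On the day 1 array the osteoclast fusion genes Dcstamp and Ocstamp and the receptor gene Oscar were below the floor, and the calcitonin receptor gene Calcr was below it on both arrays. Of 21 measured osteoclast genes 18 were above the floor on both arrays, among them Mmp9 (4173 on day 1), Acp5 (2604) and Ctsk (568). On day 4, 11 of the 21 were higher and 1, Car2, was lower (7267 on day 1 and 656 on day 4). Because its label gives 0 days of differentiation, the day 1 array is called fresh marrow below.

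Marker lists of marrow cell types differed between the arrays as follows. Of 26 measured stromal and bone-forming cell genes, 23 were higher and 0 lower, and their summed signal was 7621 on day 1 and 55304 on day 4. Periostin (Postn), Cd248 and bone sialoprotein (Ibsp) of this list were below the floor on both days. Of 19 red cell genes 16 were lower and 1, the transferrin receptor gene Tfrc, was higher, with a summed signal of 43096 against 9703. Of these sums Tfrc alone made up 3569 on day 1 and 7794 on day 4. Haemoglobin Hbb-b2, Alas2 and Slc4a1, which define the red cell lineage, were below the floor on day 4. Neutrophil genes were lower in 13 of 20 cases (summed signal 158074 and 92363), B cell genes in 15 of 22 (19622 and 9728) and T and NK cell genes in 7 of 10 (3193 and 1341). Mast cell, basophil and eosinophil genes were lower in 9 of 12 cases (18587 and 2193). None of the members of these 4 lists was higher. Neutrophil genes differed by unequal amounts: Ms4a3 was 12.8-fold lower, Elane 10.6-fold lower and Mpo 6.58-fold lower. The genes S100a8, S100a9 and Ngp, with high signals on both days, differed by -0.30, -0.13 and -0.39 on the log2 scale. Macrophage and monocyte genes had 9 higher and 3 lower of 25 (summed signal 91888 and 130819). The 3 lower were Ccr2, Cx3cr1 and Itgam, with Ccr2 at 3887 on day 1 and 121 on day 4, 32.1-fold lower. Of 16 megakaryocyte genes none was higher or lower. Dendritic cell genes had 2 higher and 7 lower of 16, and stem and progenitor cell genes 2 higher and 6 lower of 14. Endothelial cell genes had 1 higher and 1 lower of 19, and adipocyte genes 3 higher and 2 lower of 11. All gene groups below come from arrays that differ in these markers, and the part of the markers in each group's difference was not tested.

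**Figure D2:**
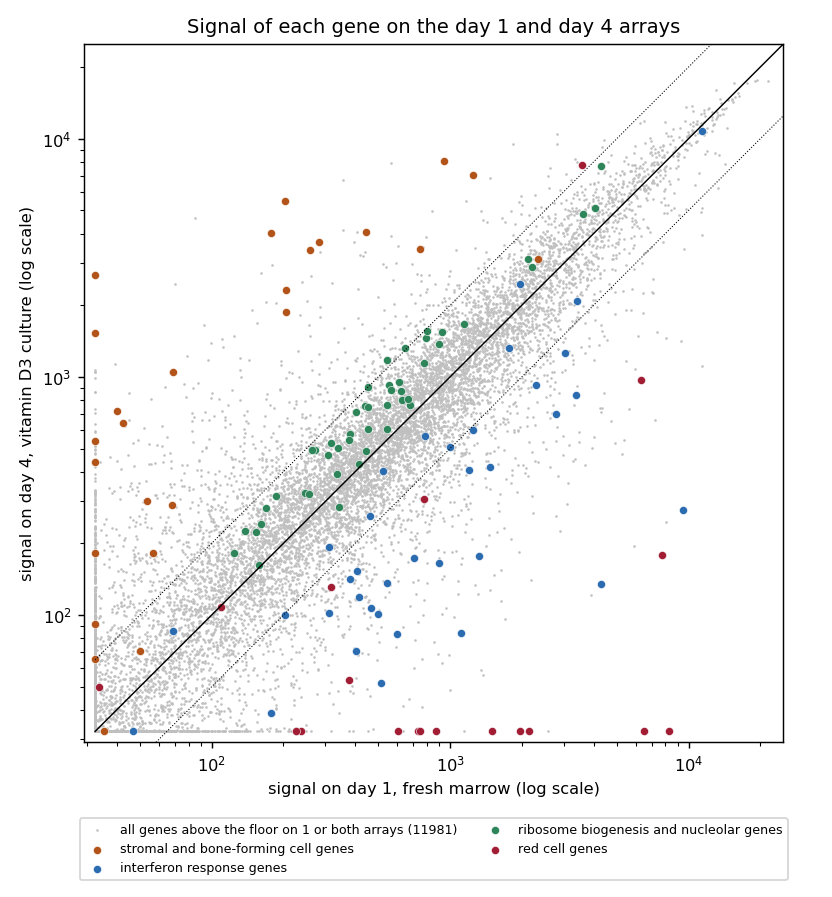
Signal of each measured gene on day 1 (horizontal axis, log scale) and day 4 (vertical axis, log scale), with values below the floor drawn at the floor. The solid line marks equal signal and the dotted lines 2-fold. Stromal genes lie above the lines (23 of 26 past 2-fold), interferon response and red cell genes below them (26 of 37 and 16 of 19), and ribosome biogenesis genes in a band just above equality (median 0.57).

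Most measured structural chains of the extracellular matrix, and most enzymes that make them, were higher on day 4. Of 23 measured collagen chains 16 were higher and 1, Col11a2, was lower (median log2 difference 2.01, and 0.43 to 2.19 over the alternatives). The signal of Col3a1, a fibril-forming collagen of soft tissue, was 281 on day 1 and 3672 on day 4, 13.1-fold higher. That of the network-forming chain Col8a1 was 76.5 on day 1 and 935 on day 4, 12.2-fold higher, and that of Col5a2, a chain that regulates fibril width, 186 on day 1 and 2051 on day 4, 11-fold higher. Col12a1, a collagen on the fibril surface, was below the floor on day 1 and 278 on day 4, at least 8.57-fold higher (mean 0.99). The beaded-filament chain Col6a1 was 6.49-fold higher and the basement membrane chain Col4a1 5.0-fold higher. Of the chains on the list, 3 are stromal markers too, and without them 13 of 20 were higher.

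The enzymes that fold, trim and cross-link collagen were higher together with the chains, 17 of 24 with none lower (median 1.5). Lox, the oxidase that starts cross-linking, had a signal of 169 on day 1 and 2065 on day 4, 12.2-fold higher, and its relative Loxl1 was 77.8 on day 1 and 821 on day 4, 10.5-fold higher. Serpinh1, the collagen chaperone of the endoplasmic reticulum, was 355 on day 1 and 4156 on day 4, 11.7-fold higher. Among the enzymes that hydroxylate the chains, the prolyl hydroxylase P4ha2 was 5.78-fold higher, P3h3 4.9-fold higher and the lysyl hydroxylase Plod2 at least 5.19-fold higher. All of these stayed above their day 1 signal on days 5 and 7, as the plot of signals by day shows for Lox (2548 and 1204), Serpinh1 (5147 and 1516) and P4ha2 (322 and 215).

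Proteins of the basement membrane and of elastic fibres were higher in 18 of 25 cases, with none lower (median 1.91). On day 1 the floor exceeded the signals of the fibulin genes Efemp1, Fbln5 and Fbln2, whose products bind elastin and basement membrane. Efemp1 was at least 26.6-fold higher, Fbln5 at least 15.3-fold higher and Fbln2 at least 9.83-fold higher. Nidogen 1 (Nid1), which links laminin to collagen IV, had a signal of 112 on day 1 and 1332 on day 4, 11.9-fold higher, and the laminin chain Lamb1 was 83.3 on day 1 and 895 on day 4, 10.7-fold higher. Of 18 proteoglycans and small leucine-rich proteins 10 were higher and 1 was lower. The heparan sulfate proteoglycan gene Gpc4 was 55.9 on day 1 and 809 on day 4, 14.5-fold higher, and the surface proteoglycan gene Sdc1 was 6.27-fold higher. The exception was versican (Vcan), a large proteoglycan that myeloid cells also make: its signal was 1016 on day 1 and 236 on day 4, 4.31-fold lower, and its 2 other probe sets above the floor on both days gave log2 differences of -1.86 and -1.35. As the mean over all its probe sets Vcan differed by -0.66, under 2-fold. Among enzymes that build matrix glycans 13 of 33 were higher and 5 lower, with the 6-O-sulfatase Sulf1 at least 6.37-fold higher and the sulfotransferase Chst13 8.83-fold lower.

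Proteins that cells deposit to signal through the matrix were also more often higher than lower. Of 18 adhesive and matricellular glycoproteins 9 were higher and none lower, with Ccn1 at 107 on day 1 and 810.0 on day 4, 7.58-fold higher, Ccn2 3.23-fold higher and tenascin C (Tnc) 4.12-fold higher. Proteases of the ADAM and ADAMTS families had 7 of 25 higher, among them Adam12 (6.76-fold higher), Adamts9 (at least 6.41-fold higher, mean 0.97) and Adamts1 (4.87-fold higher), and 1, Adam11, lower. The membrane-anchored metalloproteinase gene Mmp23 was at least 8.31-fold higher and the inhibitor gene Timp1 7.59-fold higher, with a signal of 441 on day 1 and 3346 on day 4. In contrast, of 14 cathepsins only Ctsk was higher at 2-fold, and Ctsg and Ctse were lower.

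Of 27 genes of the contractile actin apparatus 11 were higher on day 4 and 0 lower, with a median of 0.56. The tropomyosin gene Tpm2 had a signal of 148 on day 1 and 1899.8 on day 4, 12.8-fold higher, but its log2 difference was 0.48 when probe sets that match several transcripts were left out. The light chain gene Myl9, of smooth muscle myosin, had 131 on day 1 and 1068 on day 4, 8.14-fold higher. Smooth muscle actin (Acta2) was 747 on day 1 and 3458 on day 4, 4.63-fold higher, and 0.74 on the log2 scale as the mean over its probe sets. The actin regulator caldesmon (Cald1) had 791 on day 1 and 3859.7 on day 4, 4.88-fold higher, and the LIM protein gene Fhl2 90.9 on day 1 and 487 on day 4, 5.36-fold higher. By contrast the calponin gene Cnn2 differed by -0.75 and vinculin (Vcl), of focal adhesions, by -0.33 on the log2 scale.

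Many contractile genes carry a CArG box, the site that serum response factor binds. Upstream sequence with a match was looked for in RefSeq promoters (GRCm38.p6, from 250 bases before to 50 after each start), on both strands. Of 25 contractile genes with a promoter entry 6 (24%) held a match, against 1.63% of all 32851 promoters and 1.68% of measured genes. Of those with a match 2 were higher, and of the 19 without one 7 were. The 4 windows below show the match in capitals, in Myl9 and Fhl2, which were higher, and in Cnn2 and Vcl, which were not. Each reads 5′ to 3′ on the strand of the gene and ends at or before its start.
Myl9 (chr2:156775283-156775362, plus strand): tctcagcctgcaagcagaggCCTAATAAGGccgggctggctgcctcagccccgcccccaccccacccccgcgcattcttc
Fhl2 (chr1:43196798-43196877, minus strand): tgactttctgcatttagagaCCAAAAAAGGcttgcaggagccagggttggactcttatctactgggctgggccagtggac
Cnn2 (chr10:79988524-79988599, plus strand): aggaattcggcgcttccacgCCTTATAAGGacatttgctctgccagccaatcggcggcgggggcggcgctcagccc
Vcl (chr14:20929151-20929230, plus strand): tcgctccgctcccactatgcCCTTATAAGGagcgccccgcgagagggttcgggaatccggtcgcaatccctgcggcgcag
A match was thus present on both sides, in genes that were 8.14-fold higher and 5.36-fold higher and in genes with log2 differences of -0.75 and -0.33. A match is a run of letters and does not show that a factor was bound.

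Components of the Hedgehog and YAP pathways, both of which tell mesenchymal cells to grow, were higher in 16 of 20 cases with none lower (median 1.7, and 0.58 to 1.72 over the alternatives). The co-activator gene Yap1 had a signal of 45.4 on day 1 and 347 on day 4, 7.64-fold higher, its partner Tead1 75.3 on day 1 and 428 on day 4, 5.68-fold higher, and the related co-activator Wwtr1 was 3.62-fold higher. On the Hedgehog side the co-receptors Gas1 and Cdon and the signal transducer Smo were higher: Gas1 was 78.9 on day 1 and 1225 on day 4, 15.5-fold higher, Cdon 5.3-fold higher and Smo 5.27-fold higher. The pathway's transcriptional target Gli1 was below the floor on both days. Ptch1, also on the list, had 170 on day 1 and 205 on day 4, a log2 difference of 0.27.

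Growth factor genes were higher more often than lower. Of 30 fibroblast, platelet-derived and vascular growth factor genes and receptors 18 were higher and none lower (median 1.38, and 0.65 to 1.54 over the alternatives). The ligand gene Hbegf, which activates the EGF receptor, had a signal of 143 on day 1 and 1175 on day 4, 8.22-fold higher, and Fgf7, a stromal factor for epithelium, 82.8 on day 1 and 653 on day 4, 7.88-fold higher. Gas6, the ligand of the receptors Axl and Mertk, was 419 on day 1 and 3237 on day 4, 7.73-fold higher. Ligand and receptor were both higher for platelet-derived growth factor, with Pdgfa 5.65-fold higher, Pdgfra 15-fold higher and Pdgfrb 9.15-fold higher. Of 26 dual-specificity phosphatases and Sprouty genes 7 were higher and 2 lower. This family includes feedback inhibitors of the Ras and MAP kinase pathway, through which these receptors signal. Spry1 was 4.28-fold higher, Spred1 2.94-fold higher, Dusp6 2.91-fold higher and Dusp4 at least 6.07-fold higher, whereas Dusp8 was at least 7.4-fold lower and Dusp1 2.02-fold lower.

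The insulin-like growth factor system had 9 of 15 genes higher and 2 lower (median 1.5, and 0.71 to 2.06 over the alternatives). The adaptor gene Irs1, which carries the signal from the receptor, had a signal of 88 on day 1 and 943 on day 4, 10.7-fold higher. Of the binding proteins, Igfbp4 was 1168 on day 1 and 5469.6 on day 4, 4.68-fold higher and Igfbp7 4.44-fold higher (mean 0.90), and Igfbp6 was at least 2.56-fold lower. The ligand gene Igf1 was 5.94-fold higher and the receptor gene differed in the opposite direction: Igf1r had a signal of 798 on day 1 and 264 on day 4, 3.02-fold lower, and its 2 other probe sets above the floor on both days gave -1.2 and -1.12 as log2 differences. As the mean over all its probe sets Igf1r differed by -0.81, under 2-fold.

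In the TGF-beta, activin and BMP family 14 of 38 genes were higher and 2 lower, and secreted antagonists were among those with the largest differences. Follistatin (Fst), which binds activin, was 62.1 on day 1 and 511 on day 4, 8.23-fold higher, and gremlin (Grem1), which binds BMPs, 49.4 on day 1 and 358 on day 4, 7.24-fold higher. The follistatin-like gene Fstl1 was 285 on day 1 and 3336 on day 4, 11.7-fold higher. Among ligands, Tgfb3 was 39 on day 1 and 333 on day 4, 8.53-fold higher, and Bmp4 and Bmp5 were at least 4.21-fold higher and 4.58-fold higher (mean 0.96), while the activin chain gene Inhba was 797 on day 1 and 136 on day 4, 5.88-fold lower.

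Wnt pathway genes had 15 of 29 higher and 2 lower (median 1.04, and 0.54 to 1.13 over the alternatives), and most of the larger differences were bounds from below the floor on day 1. Both enhancers and inhibitors of the pathway were among them: the R-spondin gene Rspo3 was at least 7.74-fold higher, and the secreted inhibitors were too, Sfrp1 at least 13.9-fold higher and Wif1 at least 10.3-fold higher. Rspo2 was at least 33.1-fold higher, but another probe set of it differed by -0.66, so its difference depends on the probe set. The receptor gene Fzd1 was 211 on day 1 and 784 on day 4, 3.71-fold higher, whereas Lef1, a transcription factor that lymphocyte precursors also use, was 139 on day 1 and 42 on day 4, 3.3-fold lower (mean -0.89). Notch pathway genes had 2 higher and 2 lower of 20 (10.0% each), near the shares over all genes. Notch3 was 2.44-fold higher (mean 0.64) and Notch1 2.08-fold lower (mean -0.84).

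Adhesion genes differed by form. Of 27 junction genes 12 were higher and 5 lower. The mesenchymal cadherin Cdh2 was at least 9.76-fold higher, and connexin 43 (Gja1), which couples neighbouring bone-forming cells, was 319 on day 1 and 2474 on day 4, 7.75-fold higher, with log2 differences from 0.50 to 3.33 in its other probe sets. The epithelial cadherin Cdh1 was at least 3.26-fold lower, and the claudin gene Cldn13, of red cell precursors, 635 on day 1 and below the floor on day 4, at least 19.6-fold lower. Of 20 genes on the integrin list, which includes the binding proteins Itgb1bp1 and Itgb3bp, 2 were higher and 4 lower. Itga8, of fibroblasts, was at least 7.93-fold higher, and Itgb2l, of granulocytes, 2973 on day 1 and 469 on day 4, 6.34-fold lower (mean -0.89). Tetraspanins were split as well, 5 higher and 7 lower of 24, with Tspan6 4.79-fold higher and Tspan33 11.6-fold lower. Genes that guide cell migration had 12 of 43 higher and 1 lower, with the repellent Slit2 at 45.8 on day 1 and 358 on day 4, 7.81-fold higher (mean 0.99), and the netrin receptor gene Unc5b at 48.2 on day 1 and 319.9 on day 4, 6.64-fold higher.

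Transcription factors of mesenchymal development were more often higher than lower. Of 34 T-box, Forkhead, Sox and bHLH factors 12 were higher and 1, Foxo3, was lower (mean -0.26). Snai2, a repressor of epithelial genes, was below the floor on day 1, with a signal of 994 on day 4, at least 30.6-fold higher. Of genes that pattern mesoderm, Foxc2 was at least 8.45-fold higher, Tbx15 at least 8.11-fold higher and Tbx18 at least 3.94-fold higher. Of 25 homeobox genes outside the Hox clusters 9 were higher and 2 lower. Irx3 was 65 on day 1 and 559.9 on day 4, 8.62-fold higher, and Shox2, a limb gene, 58.2 on day 1 and 319 on day 4, 5.49-fold higher, while Satb1, of lymphocytes, was 3.39-fold lower and Hlx 2.43-fold lower. Of 16 Hox genes 3 were higher, the distal genes Hoxa10 (at least 4.72-fold higher) and Hoxc10 (at least 4.0-fold higher) and Hoxa9 (2.2-fold higher, mean 0.57), and 0 were lower.

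Imprinted genes, which are read from 1 parental copy and include several regulators of fetal growth, had 10 of 18 higher and 2 lower (median 1.18, and 0.37 to 1.32 over the alternatives). The growth regulator Grb10 was 176 on day 1 and 764 on day 4, 4.35-fold higher, the zinc finger gene Plagl1 197 on day 1 and 491 on day 4, 2.49-fold higher, and necdin (Ndn) at least 5.25-fold higher. Those lower were both long noncoding RNAs, Meg3 with 186 on day 1 and 40.3 on day 4, 4.61-fold lower, and Kcnq1ot1 2.34-fold lower. As the mean over probe sets their log2 differences were -0.26 and -0.50, and those of Grb10 and Plagl1 0.71 and 0.44. Among chromatin regulators, of which 2 were higher and 3 lower of 43, the architectural protein gene Hmga2 was 62.8 on day 1 and 437 on day 4, 6.97-fold higher. The DNA methyltransferase gene Dnmt3a was 4.56-fold higher, but log2 differences of its other probe sets ran from 0.34 to 2.84.

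The interferon response was lower on day 4 across most of its genes. Of 37 measured genes 26 were lower and 0 were higher, with a median log2 difference of -1.6, and -1.8 to -0.99 over the alternatives. Viperin (Rsad2), which blocks viral RNA synthesis, had a signal of 9488 on day 1 and 276 on day 4, 34.3-fold lower, and the neighbouring kinase gene Cmpk2 512 on day 1 and 51.7 on day 4, 9.9-fold lower. The transcription factor genes that carry the response were lower too: Irf7 was 899 on day 1 and 166 on day 4, 5.41-fold lower, and Irf9 1204 on day 1 and 406 on day 4, 2.96-fold lower. Among the RNA sensors, which detect viral RNA, Dhx58 was 3.48-fold lower (mean -0.60), whereas Ddx58 differed by -0.97 and Ifih1 by -0.47 on the log2 scale. Ifitm3, which blocks viral entry, had 11380.5 on day 1 and 10819 on day 4, a log2 difference of -0.07. All but 1 of these 37 genes are on no cell type list, but which cells carried their RNA was not tested.

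Interferon-stimulated genes are switched on through the interferon-stimulated response element, searched here as GAAANNGAAA on both strands of the same RefSeq promoters. Of 27 of these genes with a promoter entry 14 (51.9%) held a match, against 3.44% of all promoters and 3.8% of measured genes. Of those with a match 8 were lower and 6 were not, and of the 13 without one 10 were lower and 3 were not. The windows below show matches in capitals for 5 of the lower genes and, last, for Ifi203, 1 of those not lower. On the opposite strand the match reads TTTCNNTTTC, and each window ends at or before the gene's start.
Rsad2 (chr12:26456513-26456592, minus strand): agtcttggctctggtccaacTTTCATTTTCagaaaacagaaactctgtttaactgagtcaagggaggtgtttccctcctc
Ifit1 (chr19:34640765-34640844, plus strand): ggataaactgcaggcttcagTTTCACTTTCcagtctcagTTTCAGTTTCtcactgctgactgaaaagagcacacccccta
Ifit3 (chr19:34583353-34583432, plus strand): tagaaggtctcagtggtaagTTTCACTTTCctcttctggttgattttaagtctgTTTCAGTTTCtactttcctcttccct
Oas3 (chr5:120777675-120777754, minus strand): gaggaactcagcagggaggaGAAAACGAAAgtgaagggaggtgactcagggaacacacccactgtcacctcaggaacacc
Ddx60 (chr8:61928014-61928086, plus strand): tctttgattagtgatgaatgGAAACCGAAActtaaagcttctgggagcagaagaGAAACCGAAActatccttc
Ifi203 (chr1:173942493-173942547, minus strand): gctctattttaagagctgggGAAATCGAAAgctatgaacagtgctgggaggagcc
Of the genes shown, Ifit1 had 601 on day 1 and 83.5 on day 4, 7.2-fold lower, Ifit3 466 on day 1 and 107 on day 4, 4.36-fold lower, and Ddx60 309.5 on day 1 and 102 on day 4, 3.04-fold lower. Oas3, which makes the messenger that activates RNase L, was 227 on day 1 and below the floor on day 4, at least 6.99-fold lower. Ifi203, with the same letters, had 68.6 on day 1 and 86 on day 4, a log2 difference of 0.33. On days 5 and 7 the signal of Rsad2 was 169 and 407 and that of Ifit1 52.5 and 106, all below day 1.

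**Figure D3:**
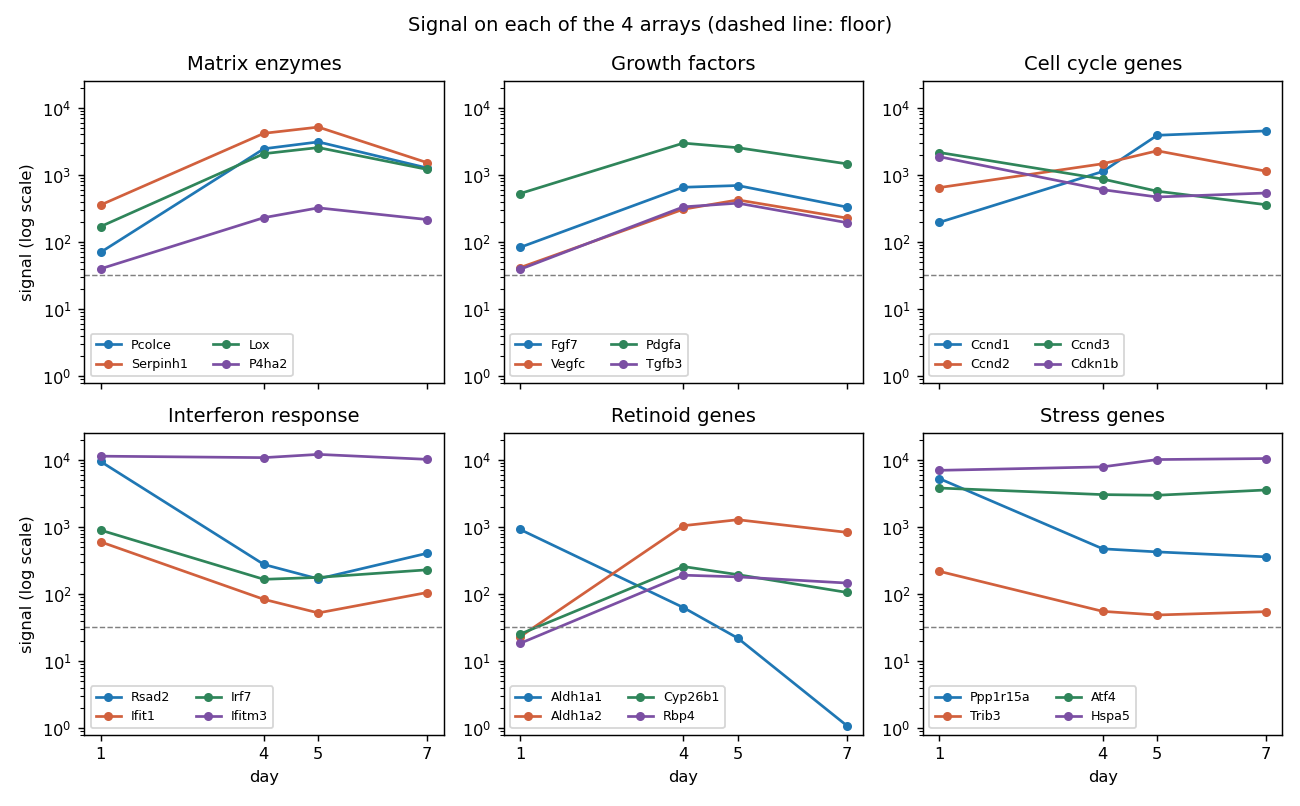
Signal (log scale) on the 4 arrays, days 1, 4, 5 and 7, for genes of 6 groups, 1 array per point. The dashed line is the floor. Matrix enzymes and growth factors were higher on day 4 (Lox 169 and 2065, Pdgfa 525 and 2969.6), Rsad2 and Ppp1r15a were lower, and Ifitm3 and Hspa5 differed by -0.07 and 0.17 on the log2 scale.

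Of 18 interferon-inducible GTPases and schlafens 10 were lower and 1 was higher (median -1.08). Slfn4, a schlafen of myeloid cells, had a signal of 4897 on day 1 and 527 on day 4, 9.3-fold lower, and Mx1, which blocks influenza virus, 177 on day 1 and 38.8 on day 4, 4.57-fold lower. The exception was Iigp1, a GTPase that attacks the vacuoles of parasites. Its signal was 110.3 on day 1 and 721 on day 4, 6.54-fold higher, and another probe set of it differed by 3.08 on the log2 scale. Of 19 MHC class I and peptide-loading genes none was higher and 3 were lower, with the light chain gene B2m at -0.10 on the log2 scale. MHC class II genes had 5 of 14 lower and none higher, with the transactivator gene Ciita 4.29-fold lower.

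Cytokine and innate sensing genes differed in both directions, and chemokine receptors were lower where they differed. Of 11 interleukins 3 were higher and 3 lower. Interleukin 1 beta (Il1b), a fever cytokine, had a signal of 2846 on day 1 and 383 on day 4, 7.44-fold lower, and Nlrp12, a regulator of inflammation in myeloid cells, 381 on day 1 and 47.8 on day 4, 7.97-fold lower. Among 25 TNF superfamily genes 7 were lower and 3 higher, with the B cell survival factor gene Tnfsf13b at 462 on day 1 and 45.8 on day 4, 10.1-fold lower, and lymphotoxin beta (Ltb) at 1591 on day 1 and 296 on day 4, 5.38-fold lower. Of 30 Toll-like receptor and inflammasome genes 4 were lower and 1 was higher. Chemokine receptors had 7 of 16 lower and none higher, among them Ccr9 (10.6-fold lower), Ccr7 (4.1-fold lower) and Cxcr2 (2.81-fold lower). Without the members that are on a cell type list, 2 of 11 were lower. Chemokine ligands were mixed, 6 higher and 3 lower of 27. Cxcl5, which attracts neutrophils, was 262 on day 1 and 2648 on day 4, 10.1-fold higher, while Cxcl2, with the same target cell, was 2281 on day 1 and 626 on day 4, 3.65-fold lower. The lymphocyte growth factor gene Il7 was at least 4.85-fold higher.

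Lipid mediator genes differed in both directions, 8 higher and 5 lower of 26. Ltc4s, which makes the cysteinyl leukotrienes, had a signal of 92.8 on day 1 and 1649 on day 4, 17.8-fold higher. For leukotriene B4, the enzyme gene Lta4h had 6441 on day 1 and 1863 on day 4, 3.46-fold lower, and the receptor gene Ltb4r1 1801 on day 1 and 209 on day 4, 8.62-fold lower. Alox5, which starts the synthesis of both kinds, was 784 on day 1 and 247 on day 4, 3.18-fold lower, and Alox15, an enzyme of eosinophils and some macrophages, was at least 35.3-fold lower. On the prostaglandin side the terminal synthases Ptges, Tbxas1 and Hpgds were 3.3-fold higher, 2.49-fold higher and 2.33-fold higher.

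Complement genes had 11 of 20 higher and 2 lower (median 1.15). The C1 inhibitor gene Serping1 had a signal of 99.7 on day 1 and 813 on day 4, 8.15-fold higher, and factor B (Cfb), of the alternative pathway, 226 on day 1 and 53.1 on day 4, 4.25-fold lower. Of 32 receptors and bridging proteins for dead cells and modified lipoprotein 12 were higher and 1 was lower. The bridging protein gene Mfge8 was 178 on day 1 and 2952 on day 4, 16.5-fold higher, and the scavenger receptor gene Scara3 was at least 13.3-fold higher, while Olr1, a receptor for oxidised LDL, was 411 on day 1 and 67.9 on day 4, 6.06-fold lower. Of this list 12 genes are on a cell type list, and without them 6 of 20 were higher. Coagulation genes included the inhibitor Tfpi2 at 233 on day 1 and 1818 on day 4, 7.79-fold higher, and coagulation factor X (F10) at 2779 on day 1 and 261 on day 4, 10.6-fold lower. The serpin gene Serpinf1, an inhibitor of vessel growth, was 99.8 on day 1 and 1389.7 on day 4, 13.9-fold higher, and Serpinb1a, which protects neutrophils from their own proteases, 4285 on day 1 and 709 on day 4, 6.05-fold lower.

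Most ribosome biogenesis genes lay above 0 and most mitosis genes below it. Of 47 ribosome biogenesis genes 46 (97.9%) were above 0, the exception being the polymerase subunit Polr1a at -0.28, but only 3 reached 2-fold (median 0.57). Of 56 mitosis genes 2 (3.57%) were above 0, and 12 were lower at 2-fold (median -0.63). Over all genes 54% were above 0 and the median was 0.06. The pooled SD of 0.41 between probe sets of the same gene is a spread of single values and gives no error for these medians.

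Among the growth genes, nucleophosmin (Npm1), a chaperone of the nucleolus, had a signal of 4312 on day 1 and 7671 on day 4, a log2 difference of 0.83. Nop58, a core protein of the complexes that modify ribosomal RNA, was 647 on day 1 and 1319 on day 4 (1.03), and the maturation factor gene Tsr1 545 on day 1 and 1182 on day 4 (1.12). Myc, a transcription factor known to drive these genes, was 322 on day 1 and 691 on day 4, 2.14-fold higher, whereas the related Mycn was 137 on day 1 and 43.1 on day 4, 3.19-fold lower (mean -0.51). Cytosolic ribosomal proteins themselves had a median of 0.07, and tRNA synthetases one of 0.36 with 85.7% above 0.

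Mitochondrial genes lay mostly a little above 0. Of 82 respiratory chain and ATP synthase subunits 77 (93.9%) were above 0 with a median of 0.31, and 2 were higher and 2 lower at 2-fold. Both lower ones, Cox6a2 (3.04-fold lower) and Cox6b2 (2.52-fold lower), are tissue-specific forms of their subunit. Mitochondrial ribosomal proteins were above 0 in 86.8% of 76 cases (median 0.37), tricarboxylic acid cycle genes in 88.9% of 27 (median 0.57) and fatty acid oxidation genes in 87.9% of 33 (median 0.53). Idh3a, of the cycle, had 1251 on day 1 and 1989.7 on day 4, a log2 difference of 0.67. Glycolysis genes had a median of -0.02, with the glucose transporter gene Slc2a3 at 5482 on day 1 and 1904 on day 4, 2.88-fold lower (mean -0.90), and the regulatory enzyme gene Pfkfb4 at 1537 on day 1 and 652 on day 4, 2.36-fold lower.

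**Figure D4:**
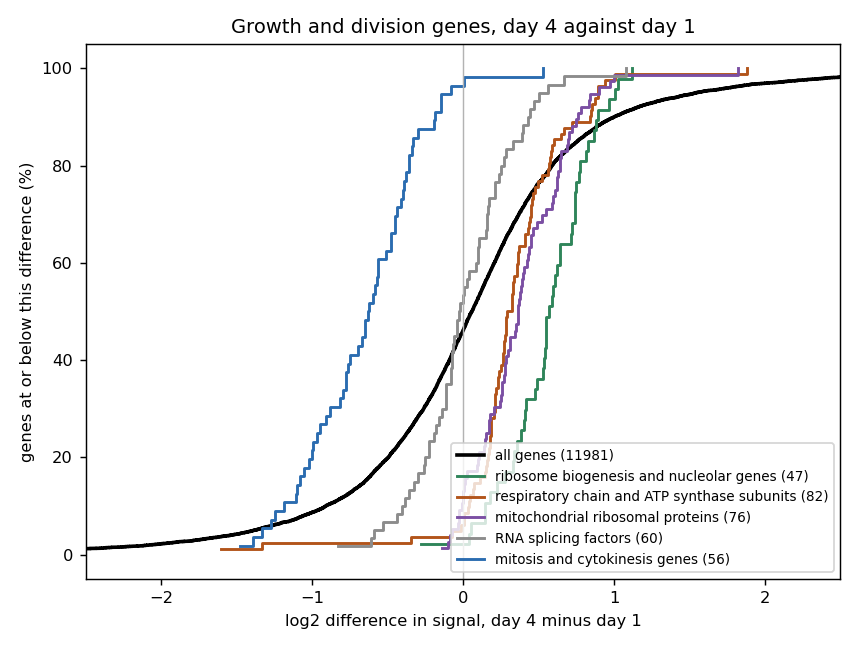
Share of genes (vertical axis, percent) at or below each log2 difference between day 4 and day 1 (horizontal axis), for all measured genes and 5 lists. The curve of ribosome biogenesis genes lies to the right of all genes (median 0.57), that of mitosis genes to the left (median -0.63), and that of splicing factors near 0 (median -0.02).

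Within the division genes, the proliferation antigen gene Mki67 had a signal of 4312 on day 1 and 1645 on day 4, 2.62-fold lower, and Top2a, which untangles chromosomes, 2759 on day 1 and 1432 on day 4, a log2 difference of -0.95. Replication genes were nearer to all genes, with 0 higher and 4 lower of 54 and a median of -0.19. The sliding clamp gene Pcna differed by 0.11 and the helicase subunit Mcm2 by 0.85, while the activator E2f2, prominent in red cell precursors, was 1602 on day 1 and 272 on day 4, 5.88-fold lower.

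Cell cycle regulators differed by form. Of the D cyclins, which open the cycle in answer to growth factors, Ccnd1 had 196 on day 1 and 1121 on day 4, 5.73-fold higher, and Ccnd2 646 on day 1 and 1462 on day 4, 2.26-fold higher, whereas Ccnd3, prominent in blood cells, had 2150.4 on day 1 and 864 on day 4, 2.49-fold lower. Ccnd1 went on to 3885 on day 5 and 4514 on day 7. Among inhibitors, Cdkn2b and Cdkn2a were below the floor on day 1, and on day 4 Cdkn2b was at least 10-fold higher and Cdkn2a at least 3.18-fold higher. Cdkn1b and Cdkn2d were lower, with 1859 on day 1 and 600.1 on day 4, 3.1-fold lower, and 2850.0 on day 1 and 853 on day 4, 3.34-fold lower. In all 6 of 36 cyclins, kinases and inhibitors were higher and 5 lower.

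Of 42 folding and unfolded protein response genes 1 was higher and 4 were lower (median 0.10), against 10.0% and 8.65% of all genes. Ppp1r15a, which restores translation after stress, had a signal of 5261 on day 1 and 473 on day 4, 11.1-fold lower, and the pseudokinase gene Trib3 218 on day 1 and 55.3 on day 4, 3.95-fold lower. The stress factor Ddit3 was 1012 on day 1 and 402 on day 4, 2.52-fold lower (mean -0.95), and Chac1, which degrades glutathione, 298 on day 1 and 114 on day 4, 2.62-fold lower. The chaperone gene Hspa5 differed by 0.17 on the log2 scale. Immediate early genes, which answer to any sudden stimulus, had 10 of 31 lower and 2 higher, with Btg2 at 1911 on day 1 and 329.9 on day 4, 5.79-fold lower.

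Genes known to answer to low oxygen were split, 7 higher and 7 lower of 30. Those higher included Lox, P4ha2 and Plod2, which act on collagen, the peptide hormone gene Adm (at least 9.0-fold higher) and the oxygen-regulated factor Epas1 (410.5 on day 1 and 2340.2 on day 4, 5.7-fold higher). Those lower included Egln3, an oxygen sensor, at 435 on day 1 and 102 on day 4, 4.25-fold lower, Ero1a at 2633 on day 1 and 835 on day 4, 3.15-fold lower, and Ndrg1 2.61-fold lower (mean -0.96). Targets of p53 had 4 higher and 9 lower of 33: Phlda3 was 137 on day 1 and 558 on day 4, 4.07-fold higher, and the cell death gene Bbc3 287 on day 1 and 77.1 on day 4, 3.73-fold lower.

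Of 29 antioxidant genes 7 were higher and none lower, led by the peroxidases of the endoplasmic reticulum Gpx8 (45.1 on day 1 and 858 on day 4, 19-fold higher) and Gpx7 (44.5 on day 1 and 333 on day 4, 7.47-fold higher). Glutathione transferases had 6 of 20 higher, Gstm2 at 34.1 on day 1 and 441 on day 4, 12.9-fold higher, and Gsta2 at least 19.5-fold higher, with 1, Mgst2, lower at 2308 on day 1 and 785 on day 4, 2.94-fold lower. Of 22 metallothioneins and zinc carriers 4 were higher and none lower. Mt2, which binds zinc and copper, had a signal of 239.5 on day 1 and 698 on day 4, 2.92-fold higher, and went on to 1748 and 2676 on days 5 and 7. Mt3 was below the floor on day 1, then 223, 994 and 2041 on days 4, 5 and 7.

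Retinoid enzymes differed by form as well. Aldh1a1 and Aldh1a2 both make retinoic acid from retinal. The signal of Aldh1a1 was 921 on day 1 and 63.1 on day 4, 14.6-fold lower, whereas that of Aldh1a2 was below the floor on day 1 and 1046 on day 4, at least 32.3-fold higher. Cyp26b1, which degrades retinoic acid, was at least 7.94-fold higher, and the retinol carrier gene Rbp4 at least 5.9-fold higher. In all 7 of 27 aldehyde and retinol genes were higher and 3 lower. Of 20 measured cytochrome P450 genes 6 were higher and 2 lower.

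Iron genes had 7 of 21 higher and 2 lower. Of these, Steap1 had a signal of 52.2 on day 1 and 612 on day 4, 11.7-fold higher. Its family member Steap2 had 67.1 on day 1 and 1052 on day 4, 15.7-fold higher. Ceruloplasmin (Cp), which oxidises iron on its way out of the cell, was 139.5 on day 1 and 655 on day 4, 4.69-fold higher, and the exporter ferroportin (Slc40a1) 3415 on day 1 and 8021 on day 4, 2.35-fold higher. Slc25a37, which brings iron into mitochondria for haem in red cell precursors, was 4256 on day 1 and 737 on day 4, 5.77-fold lower. Haem synthesis and degradation genes had 5 of 20 lower and 2 higher. Ppox was 3.0-fold lower (mean -0.89) and Urod 2.0-fold lower, both of synthesis, and haem oxygenase 1 (Hmox1), which breaks haem down, had 4341 on day 1 and 9199 on day 4, 2.12-fold higher.

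Carriers and receptors included genes that differed in each direction, beside 10.0% higher and 8.65% lower over all genes. Of 218 solute carriers 29 (13.3%) were higher and 15 (6.88%) lower, near those shares. The anion exchanger Slc26a7 was below the floor on day 1, with 863 on day 4, at least 26.6-fold higher, and the sodium/proton exchanger Slc9b2 had 37.5 on day 1 and 463 on day 4, 12.4-fold higher. The creatine carrier Slc6a8 was 218 on day 1 and 1037 on day 4, 4.77-fold higher, and the amino acid carrier Slc43a1 493 on day 1 and 64.5 on day 4, 7.64-fold lower. Among 54 G protein-coupled receptors named Gpr, Adgr or P2ry 12 were higher and 10 lower. Of these, the adhesion receptor Adgra3 was 58.8 on day 1 and 518 on day 4, 8.8-fold higher. Among receptors with other names, the lysophosphatidic acid receptor Lpar1 was 45.4 on day 1 and 258 on day 4, 5.68-fold higher. The short-chain fatty acid receptor Ffar2, of neutrophils, was 1076 on day 1 and 139 on day 4, 7.74-fold lower. Sphingosine phosphate receptors were split, S1pr3 at 255 on day 1 and 1646 on day 4, 6.44-fold higher, and S1pr4, of blood cells, at 799 on day 1 and 165 on day 4, 4.84-fold lower.

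Rab GTPases had 4 higher (8.0%) and 3 lower (6.0%) of 50, near the shares over all genes. Rab34, which takes part in forming primary cilia, was 84.1 on day 1 and 676 on day 4, 8.04-fold higher, and Rab27a, which releases granules from blood cells, 1451 on day 1 and 257 on day 4, 5.65-fold lower (mean -0.78). Tubulin and kinesin genes had 6 higher and 6 lower of 37, with Tuba1a at 2274 on day 1 and 5792 on day 4, 2.55-fold higher.

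Genes known to respond to vitamin D were more often higher than lower. Of 14 measured genes 5 were higher and 1 was lower (median 0.78, and 0.42 to 0.81 over the alternatives), against 10.0% and 8.65% of all genes. The catabolic enzyme gene Cyp24a1 had 605 on day 1 and 3559 on day 4, 5.88-fold higher, and the binding protein gene Igfbp3 was at least 2.82-fold higher. The glucose phosphate carrier gene Slc37a2 was 815 on day 1 and 2008 on day 4, 2.47-fold higher. Tnfsf11, which encodes RANKL, was 82.8 on day 1 and 593 on day 4, 7.17-fold higher. The receptor gene Vdr was 76.4 on day 1 and 347 on day 4, 4.55-fold higher. Camp, an antimicrobial peptide gene that vitamin D raises in human cells and that neutrophil precursors express, had 13300.0 on day 1 and 6219 on day 4, 2.14-fold lower, and Cd14 a log2 difference of -0.87. The intestinal and renal targets Trpv6, S100g and Cyp27b1 were below the floor on both days.

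The largest differences outside the lists included genes of several kinds. Of genes measured on both days, the RNA-binding protein gene Bicc1 had 96.7 on day 1 and 1182 on day 4, 12.2-fold higher, the large cadherin gene Fat1 125 on day 1 and 1478 on day 4, 11.9-fold higher, and the matrix peroxidase gene Pxdn 48.9 on day 1 and 545 on day 4, 11.1-fold higher. The granzyme gene Gzme had 111 on day 1 and 1436 on day 4, 13-fold higher. Among those lower, the kinase gene Mapk13 had 992 on day 1 and 67.6 on day 4, 14.7-fold lower, the stem cell surface gene Prom1 1465 on day 1 and 127 on day 4, 11.5-fold lower, and the ubiquitin enzyme gene Ube2o, which clears proteins in maturing red cells, 1314 on day 1 and 122 on day 4, 10.8-fold lower. From below the floor on day 1, Stc1, a secreted hormone of phosphate balance, was at least 13.7-fold higher and the peptidase gene Dpep1 at least 14.8-fold higher.

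Of 270 zinc finger genes named Zfp 15 were higher and 12 lower (median -0.02). Of 60 splicing factors 1 was higher and none lower, of 41 proteasome subunits 2 were higher and 2 lower, and of 38 autophagy genes none was higher and 1 was lower. NF-kappaB genes had 1 higher and none lower of 25, and cholesterol genes 2 higher and none lower of 25. Of 66 measured genes on the ion channel list 2 were higher and 8 lower. Those lower included Kcnq1ot1, a noncoding RNA and no channel, and Trpm2, a calcium channel of myeloid cells. The signal of Trpm2 was 1147 on day 1 and 307 on day 4, 3.74-fold lower.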

How the data were processed

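RNA of 4 mouse bone marrow samples was hybridised to 1 Affymetrix mouse array of 45101 probe sets each. The authors deposited 1 intensity per probe set and array, not on a log scale. GCOS (version 1.4) with MAS5 is named in the submitters' processing notes; no scaling target is stated in the sources used here. Trizol and then RNeasy were used to extract RNA, per the labels' protocols, and 250.0 ng went into labelling.

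After 64 control probe sets had been removed, signals below 32.4 (the median of all 4 arrays) were raised to it, and the log2 difference of day 4 minus day 1 was taken. In the platform annotation 34945 of 45037 probe sets carry 1 gene symbol, 932 several and 9160 none. Entrez numbers of 34741 were found in the RefSeq table of GRCm38.p6, and 0 symbols needed an update. For each gene the probe set was used whose log2 signal, averaged over the 4 arrays, was highest. Of 934 other probe sets of called genes, above the floor on both arrays, 93.5% had the same sign as the one chosen. Pearson's r between the 2 arrays, across 10612 genes that are not independent, was 0.892.

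The calls are 2-fold thresholds of size. The 117 gene lists (13 of cell types, 52 of pathways and 52 of families) and the comparison itself were chosen with earlier results of these data known, so a list's direction is no independent evidence. The rule for named genes took members of a list, the 40 genes with the largest differences in each direction above the floor on both arrays, and the 25 with the highest signal in each direction above it on 1 array. Genes whose other probe sets differ are said to do so where this bears on the value. Antisense and overlapping transcripts were not told apart. The counting was tested on simulated data. The alternatives were other floors, no floor with 16 added, quantile normalization, median scaling and other choices of probe set. Calculations used Python 3.11.15, numpy 2.4.6, pandas 2.3.3 and matplotlib 3.10.9.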

Additional observations from a re-analysis of the deposited data

How the results depend on the processing

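No paired analysis was possible because each day has 1 array, and for the same reason no replicate could be left out. The floor set how many genes were called: with a floor at the 25th percentile of all values 1878 genes were higher and 1717 lower, and with one at the 75th percentile 408 and 491. Under the other 8 alternatives higher genes numbered 865 to 1306 and lower genes 825 to 1144, against 1202 and 1036. No called gene was called at 2-fold in the opposite direction under any of the 10 alternatives. The number of lists whose median reached 2-fold was 19, and 10 with no floor and 16 added. The alternatives were followed for 231 of the named genes at 2-fold, and 205 kept the call as the mean over probe sets. That mean ended the call of, among others, Acta2, Igf1r, Vcan, Meg3, Slit2, Rab27a and Lef1. Leaving out probe sets that match several transcripts ended that of Tpm2, Meg3 and Foxo3. With the floor at the 75th percentile 194 of the 231 were still measured and 140 kept the call. With no floor and 16 added Col11a2, Dusp1 and Urod lost it, and with quantile normalization Col11a2 and Hmox1. Of 42 lists with a median of at least 0.5 in size, 22 had it moved by over 1.5 times under at least 1 alternative: 16 with no floor and 16 added, 14 with the floor at the 75th percentile, and none with either scaling. The median of collagen chains went down to 0.43 and that of imprinted genes to 0.37 with no floor, that of Hedgehog and YAP genes to 0.58 and that of red cell genes to -1.78 with the highest floor, that of serpins to -0.01 with no floor and that of homeobox genes to -0.07 with the highest. The medians of ribosome biogenesis (0.53 to 0.62), respiratory chain (0.25 to 0.33) and mitosis genes (-0.66 to -0.46) moved less. Signals near the floor limit the folds of genes absent on 1 day to bounds.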
